A study of Mus musculus with 8 samples.

Results

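The 45 core spliceosome genes described here encode the proteins of the small nuclear ribonucleoproteins (snRNPs) that remove introns, together with the factors that recognise the branch point and the 3′ splice site and a few proteins of the Prp19 complex and of spliceosome disassembly. They were taken by gene symbol from the 27179 genes of the deposited count table, and all 45 were found and passed the filter on low counts. The members had between 41 and 40748 counts per library. The choice used gene names and not measured values, although earlier results on these data were known when it was made. Polyadenylated RNA of embryonic mouse cerebral cortex was sequenced from 4 embryos labelled Taf8 -/lox, here called Taf8-deleted, and from 4 embryos labelled Taf8 +/+, here called wild-type, with 1 library per embryo. The Taf8 protein belongs to TFIID, a general transcription factor that recognises core promoters ahead of RNA polymerase II. The labels name no embryonic day, strain or Cre line acting on the lox allele, so which cells of the cortex lost Taf8 cannot be read from the labels.

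An snRNP is a small nuclear RNA bound by proteins. The Sm proteins close into a ring around the RNAs of the U1, U2, U4 and U5 particles, and the nuclear LSm proteins form the matching ring on U6. U1 pairs with the 5′ splice site, SF1 and U2AF mark the branch point and the 3′ splice site, and U2 then binds the branch point. The U4/U6.U5 tri-snRNP joins next, and helicases and the Prp19 complex turn the assembly into an active enzyme. Every dividing and differentiated cell of the cortex uses these proteins, and human mutations in several of them cause craniofacial, retinal or blood disease.

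Depth ran between 26312505 and 52777170 gene counts in Taf8-deleted libraries and between 30601897 and 65523487 in wild-type libraries. Levels are in the usual unit CPM, a gene's counts relative to all counts in tested genes with TMM scaling of the library sizes, and each mean is given ± SD over n = 4 embryos per group. A gene was called when its Benjamini-Hochberg adjusted p in edgeR's quasi-likelihood test was under 0.05 over all 15649 genes tested. Scaling sets higher and lower relative to the other genes, and in bulk tissue fewer cells of a type and less RNA per cell cannot be told apart. Wild-type replicates 1 to 3 share the first part of their animal number (408.4, 408.5 and 408.6), the wild-type replicate 4 has 409.2, and each deleted embryo has a first part of its own (456.1, 472.1, 477.1 and 486.1). Any litter or batch that this number marks cannot be told apart from genotype.

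Taf8 itself had 0.791, 0.747, 0.486 and 0.547 CPM in the Taf8-deleted libraries, against 38.5, 35.0, 32.0 and 33.7 CPM in the wild-type libraries. The groups were far apart (log2 fold change -5.75, SE 0.12, adjusted p = 1.45e-09), and an exact two-sided permutation test gave p = 0.0286, the smallest that 4 against 4 libraries allow.

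Core spliceosome genes moved little after Taf8 loss, and those that moved were more often lower than higher. Of the 45 members, 20 were lower (44.4%) and 7 were higher (15.6%) in Taf8-deleted cortex, while over all genes tested 29.6% were lower and 29.5% higher. Among the 12918 genes whose mean CPM lay in the range of the members, 33.0% were lower and 29.6% higher. The remaining 18 members did not pass, so 27 were called in either direction (60.0%, against 59.2% of all genes tested). The median log2 fold change was -0.11 over the members and 0.01 over all genes tested. The groups did not overlap in 20 members (44.4%, against 53.6% of all genes tested).

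The sizes were small. The median absolute log2 fold change of the members was 0.17, against 0.27 over all genes tested, and 4 members (8.89%) were called with a change of at least 1.5-fold, against 20.2% of all genes tested. These 4 were Lsm6, Lsm4 and Snrnp27, all lower, and Lsm5, which was higher. Among the 12918 genes in the members' range of mean CPM, the median absolute change was 0.24 and 16.6% were called with at least 1.5-fold. The small sizes were not particular to the members. For 91 other splicing genes, listed below, the median was also 0.17 and 4.40% were called with at least 1.5-fold. Summed over all 45 members, the level was 6251 ± 74.6 CPM in Taf8-deleted cortex and 6652 ± 215 CPM in wild-type cortex, a ratio of 0.940. The deleted libraries ran from 6141 to 6303 CPM and the wild-type libraries from 6376 to 6876 CPM, so the sums did not overlap, with wild-type replicate 3 the lowest of its group. The count of higher members is the less stable of the pair: 7 became 3 without deleted replicate 2, 4 without deleted replicate 3 and 3 without wild-type replicate 2. All genes called higher went from 4624 to 4095, 3999 and 4018 in the same fits. The count of lower members depended on the scaling. With upper-quartile scaling, and also with library size alone, 15 members were lower and 8 higher. All genes called lower then numbered 4258 and 4104, against 4633 with TMM.

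**Figure D1:**
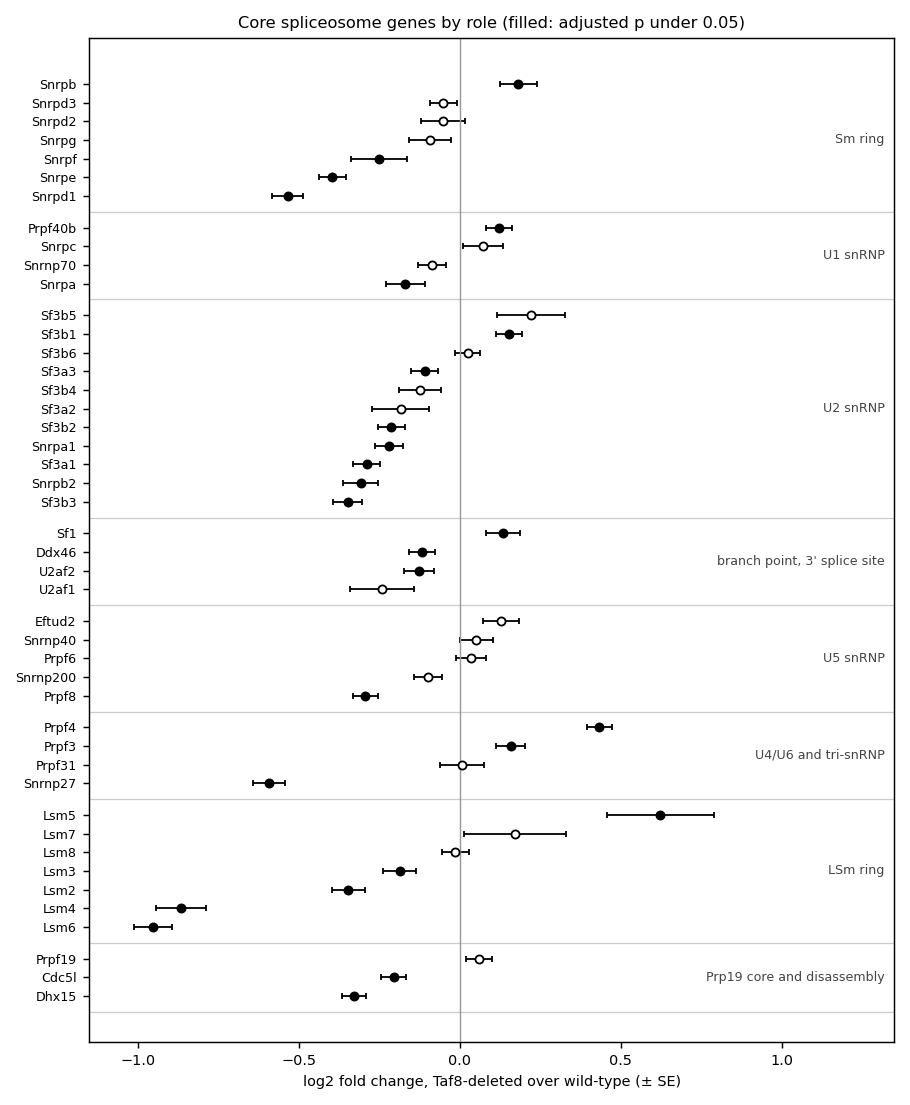
Log2 fold change of each of the 45 members, Taf8-deleted over wild-type (points, with bars for the SE), grouped by role; filled points passed an adjusted p under 0.05. Lsm6 (-0.95), Lsm4 (-0.87), Snrnp27 (-0.59) and Snrpd1 (-0.53) lie farthest to the left, and Lsm5 (0.62) and Prpf4 (0.43) farthest to the right.

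**Figure D2:**
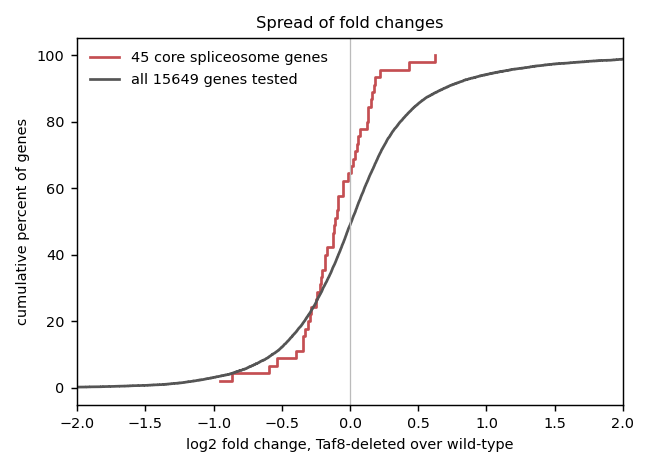
Cumulative percent of genes (y axis) by log2 fold change, Taf8-deleted over wild-type (x axis, cropped at 2 on each side), for the 45 members and for all 15649 genes tested. The members' line is steeper and crosses its middle at -0.11, while that of all genes crosses at 0.01.

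The LSm ring, which binds the 3′ end of U6 RNA, held both the largest falls and the largest rise. Of its 7 genes, 4 were lower (Lsm2, Lsm3, Lsm4 and Lsm6), Lsm5 was higher, and Lsm7 and Lsm8 did not pass. Lsm6 (chromosome 8, 78804868 to 78821152, mm10) had 18.5, 19.0, 21.4 and 21.8 CPM in the Taf8-deleted libraries, against 39.2, 40.0, 39.0 and 38.2 CPM in the wild-type libraries. Every deleted library lay well below every wild-type library, and the level was 1.94-fold lower (log2 fold change -0.95, SE 0.06, adjusted p = 5.51e-07). Lsm4 (chromosome 8, 70673231 to 70678752) had 34.1, 40.3, 35.2 and 34.1 CPM in the Taf8-deleted libraries, against 69.4, 65.7, 56.6 and 70.3 CPM in the wild-type libraries. It was 1.82-fold lower, also with no overlap (log2 fold change -0.87, SE 0.08, adjusted p = 6.02e-06).

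The other LSm genes shifted less, except for the weakly counted Lsm5. Lsm2 had 32.9, 32.2, 32.8 and 32.7 CPM in the Taf8-deleted libraries, against 42.1, 43.8, 37.7 and 42.5 CPM in the wild-type libraries. The deleted values were tightly grouped below all wild-type values (log2 fold change -0.35, SE 0.05, adjusted p = 0.000204). Lsm3 fell by 0.19 on the log2 scale, at 40.9 ± 1.40 CPM in deleted and 46.6 ± 2.68 CPM in wild-type cortex. Lsm8, the subunit that keeps the ring in the nucleus, had 55.6 ± 2.49 CPM in deleted and 56.2 ± 0.935 CPM in wild-type cortex (log2 fold change -0.01, SE 0.04, adjusted p = 0.797).

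Lsm5 (chromosome 6, 56701063 to 56704699) had 2.64, 2.37, 1.98 and 2.32 CPM in the Taf8-deleted libraries, against 1.36, 1.47, 1.92 and 1.24 CPM in the wild-type libraries. It was 1.54-fold higher with a narrow gap between the groups, at deleted replicate 3 and wild-type replicate 3 (log2 fold change 0.62, SE 0.17, adjusted p = 0.00824). Its counts were low, from 53 to 123 in the deleted and from 41 to 123 in the wild-type libraries. Lsm7 was as low, at 2.41 ± 0.238 CPM in deleted and 2.14 ± 0.378 CPM in wild-type cortex, and did not pass (log2 fold change 0.17, SE 0.16, adjusted p = 0.368). Of all stretches of 81 bases, the read length, in the longest GENCODE transcript of Lsm5, 34.8% also occur in transcripts of the pseudogenes Gm10074 and Gm7846, and for Lsm7 14.4% recur in another 2 pseudogenes. For Lsm3 the share was 14.3%, all with AC161456.1, which also overlaps 6.3% of its exon bases on the same strand. How reads with several matches were counted is not stated, so the levels of these genes are uncertain. For Lsm6 the share was 0.7%, and Lsm4 shared none.

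**Figure D3:**
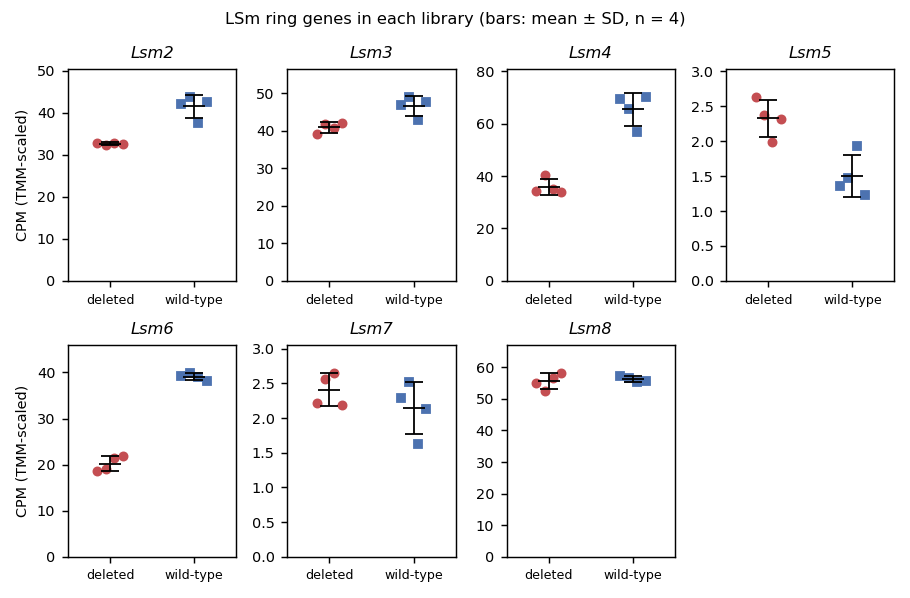
CPM of the 7 LSm genes in each of the 4 Taf8-deleted (circles) and 4 wild-type libraries (squares), with the mean ± SD as bars and a y axis of its own from 0 for each gene. Lsm4 and Lsm6 are separated by the widest gaps, and Lsm7 and Lsm8 overlap between the groups.

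Per length of gene, the LSm genes were unequal in level in both genotypes. In RPKM, the CPM divided by the deposited gene length in kilobases, Lsm8 had 74.2 ± 3.32 in Taf8-deleted and 75.0 ± 1.25 in wild-type cortex, and Lsm3 had 64.9 ± 2.23 in deleted and 73.9 ± 4.25 in wild-type cortex. Lsm4 had 38.1 ± 3.14 RPKM in deleted and 69.5 ± 6.62 RPKM in wild-type cortex, so it stood beside Lsm8 and Lsm3 in wild-type cortex and well below them in deleted cortex. As a share of the length-scaled sum of the ring, Lsm4 made up 16.1 to 19.2% in deleted and 23.8 to 26.7% in wild-type libraries. Lsm8 made up 33.6 ± 1.45% in deleted and 27.5 ± 1.16% in wild-type libraries. Lsm6, counted over a gene length of 3801 bases, had 5.31 ± 0.440 RPKM in deleted and 10.3 ± 0.189 RPKM in wild-type cortex.

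The Sm ring, the shared core of the other snRNPs, was lower in 3 of 7 genes and higher in 1. Snrpd1 (chromosome 18, 10617796 to 10628230), which encodes SmD1, had 43.2, 42.8, 44.8 and 47.7 CPM in the Taf8-deleted libraries, against 63.2, 61.9, 67.8 and 65.8 CPM in the wild-type libraries. It was 1.45-fold lower, with a wide gap between the groups (log2 fold change -0.53, SE 0.05, adjusted p = 5.95e-06). Snrpe, for SmE, had 33.0, 31.5, 31.4 and 33.0 CPM in the Taf8-deleted libraries, against 44.0, 41.5, 42.0 and 42.4 CPM in the wild-type libraries. Its groups did not overlap either (log2 fold change -0.40, SE 0.04, adjusted p = 1.57e-05). Snrpf, for SmF, fell by 0.25 on the log2 scale, but 85.4% of its exon bases overlap genes on the other strand in GENCODE, among them Ccdc38, and the strand setting of the counting is not stated. The Snrpf call was lost without deleted replicate 1 (-0.22) or 3 (-0.24) and without wild-type replicate 1 (-0.23) or 4 (-0.23).

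Snrpb, which encodes SmB, was the higher Sm gene, at 225 ± 9.41 CPM in Taf8-deleted and 198 ± 14.7 CPM in wild-type cortex (log2 fold change 0.18, SE 0.06, adjusted p = 0.0184). The highest wild-type library (214 CPM) lay above the lowest deleted library (212 CPM), and the call was lost without deleted replicate 2 (0.15) or 3 (0.16) or without wild-type replicate 2 (0.17). Snrpd2, Snrpd3 and Snrpg had log2 fold changes of -0.05, -0.05 and -0.09 and did not pass. Per length, Snrpd3 and Snrpb were the most abundant of the ring in both genotypes, at 215 ± 6.07 and 201 ± 8.39 RPKM in deleted and 223 ± 9.46 and 177 ± 13.1 RPKM in wild-type cortex. Snrpf was the least, at 25.8 ± 2.19 RPKM in deleted and 30.9 ± 3.26 RPKM in wild-type cortex. The share of Snrpd1 in the length-scaled sum of the ring was 7.77 ± 0.30% in deleted and 10.7 ± 0.83% in wild-type libraries, and that of Snrpb was 29.2 ± 0.72% in deleted and 24.3 ± 0.78% in wild-type libraries. Snrpe, Snrpf, Snrpg and Snrpd2 share 16.5%, 18.2%, 15.5% and 8.4% of their stretches of 81 bases with pseudogenes, which makes their levels less certain.

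Of the U1 genes, Prpf40b was higher, Snrpa was lower, and Snrpc and Snrnp70 did not pass. Prpf40b, a U1-associated protein that bridges the ends of the intron in yeast, had 115, 115, 119 and 118 CPM in the Taf8-deleted libraries, against 114, 106, 102 and 107 CPM in the wild-type libraries. The groups abutted (log2 fold change 0.12, SE 0.04, adjusted p = 0.0252). Snrpa, for the A protein of U1, had 86.8, 97.9, 96.7 and 93.6 CPM in the Taf8-deleted libraries, against 111, 109, 93.7 and 108 CPM in the wild-type libraries, and wild-type replicate 3 lay among the deleted values (log2 fold change -0.17, SE 0.06, adjusted p = 0.0317). Neither call was stable: that of Prpf40b was lost without any 1 deleted library (0.10 to 0.12) and without wild-type replicate 2 (0.10) or 4 (0.11). That of Snrpa was lost without deleted replicate 1 (-0.14) and without wild-type replicate 1 (-0.15), 2 (-0.17) or 4 (-0.17). Snrnp70, for U1-70K, had 341 ± 14.1 CPM in deleted and 362 ± 13.0 CPM in wild-type cortex (log2 fold change -0.09, adjusted p = 0.109), and passed as lower without deleted replicate 4 (-0.13) or wild-type replicate 4 (-0.12). Snrpc, for the C protein of U1, had a log2 fold change of 0.07 (adjusted p = 0.326).

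Of the 11 genes of the U2 particle, 6 were lower, Sf3b1 was higher and the other 4 missed the threshold. Sf3b3, a subunit of the SF3b complex that cradles the branch point, had 239, 248.6, 256 and 248 CPM in the Taf8-deleted libraries, against 330, 326, 295 and 310 CPM in the wild-type libraries. The groups were clearly apart (log2 fold change -0.35, SE 0.04, adjusted p = 7.52e-05). Snrpb2, for the U2 B″ protein, had 56.9, 56.1, 63.5 and 63.7 CPM in the Taf8-deleted libraries, against 70.2, 77.4, 75.1 and 74.4 CPM in the wild-type libraries (log2 fold change -0.31, SE 0.05, adjusted p = 0.00061). Sf3a1, the largest SF3a subunit, had 181, 192, 185 and 189 CPM in the Taf8-deleted libraries, against 240, 232, 217 and 226 CPM in the wild-type libraries (log2 fold change -0.29, SE 0.04, adjusted p = 0.000181). In each of these genes all deleted values lay below all wild-type values. Snrpa1 for the U2 A′ protein and Sf3b2 fell by 0.22 and 0.21 on the log2 scale, and Sf3a3 by 0.11.

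Sf3b1, which encodes the large scaffold of SF3b and is the most strongly counted member, went the other way. It had 681 ± 24.6 CPM in deleted and 612 ± 22.5 CPM in wild-type cortex, with no overlap (log2 fold change 0.15, SE 0.04, adjusted p = 0.00706). Its partner Sf3b2 had 428 ± 15.2 CPM in deleted and 496 ± 17.5 CPM in wild-type cortex. The subunits of SF3b were thus called in both directions, with Sf3b4, Sf3b5 and Sf3b6 not past the test at log2 fold changes of -0.12, 0.22 and 0.02, and Sf3a2 at -0.18. Sf3b4 shares 41.7% of its stretches of 81 bases with a pseudogene. The Sf3a3 call was lost without deleted replicate 1 (-0.10), 3 (-0.13) or 4 (-0.11) and without wild-type replicate 1 (-0.10) or 4 (-0.11), while without wild-type replicate 3 Sf3a2 (-0.25) and Sf3b4 (-0.18) passed as lower, and without wild-type replicate 4 Sf3b5 (0.28) passed as higher.

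The factors that first mark the branch point and the 3′ splice site differed by small amounts. U2af2, the large U2AF subunit that binds the polypyrimidine tract, had 205, 217, 213 and 209 CPM in the Taf8-deleted libraries, against 239, 242, 213 and 227 CPM in the wild-type libraries (log2 fold change -0.13, SE 0.05, adjusted p = 0.0371). Ddx46, the helicase known as Prp5 in yeast, had 170, 158, 156 and 162 CPM in the Taf8-deleted libraries, against 178, 174, 179 and 170 CPM in the wild-type libraries (log2 fold change -0.12, SE 0.04, adjusted p = 0.0297). In both genes the groups touched or overlapped. Sf1, the branch point binding protein, was higher at 378 ± 10.6 CPM in deleted and 345 ± 24.7 CPM in wild-type cortex (log2 fold change 0.13, adjusted p = 0.0491). U2af1, the small U2AF subunit, had 11.2 ± 1.58 CPM in deleted and 13.3 ± 0.822 CPM in wild-type cortex and did not pass (log2 fold change -0.24, adjusted p = 0.0571). It shares 53.0% of its stretches of 81 bases with other genes, and U2af2 shares 12.3% with 2 pseudogenes, so the levels of both are uncertain.

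Calls in this group depended on single libraries. Sf1 lost its call without deleted replicate 2 (0.10), 3 (0.12) or 4 (0.11) and without wild-type replicate 2 (0.13), 3 (0.085) or 4 (0.12). U2af2 lost its call without deleted replicate 1 (-0.12) or 4 (-0.14) and without wild-type replicate 1 (-0.12) or 2 (-0.12). Ddx46 lost its call without deleted replicate 3 (-0.11). U2af1 passed as lower without deleted replicate 1 (-0.29) or 4 (-0.33) and without wild-type replicate 1 (-0.29).

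In the U5 particle, the catalytic centre's protein scaffold, Prpf8, was lower and the other 4 genes did not pass. Prpf8 (chromosome 11, 75486777 to 75509447) had 501, 477, 480 and 483 CPM in the Taf8-deleted libraries, against 614, 613, 567 and 584 CPM in the wild-type libraries. Its groups were separated by more than the spread within either (log2 fold change -0.29, SE 0.04, adjusted p = 8.06e-05). Eftud2, the GTPase that sits against Prpf8, had 234, 266, 251 and 235 CPM in the Taf8-deleted libraries, against 236, 231, 207 and 229 CPM in the wild-type libraries (log2 fold change 0.13, SE 0.06, adjusted p = 0.0674). The groups overlapped, and 26.9% of the exon bases of Eftud2 overlap the opposite-strand gene Gm26668. Snrnp200, the helicase that unwinds U4 from U6, had a log2 fold change of -0.10 (adjusted p = 0.0717), and passed as lower without deleted replicate 2 (-0.13) or without wild-type replicate 3 (-0.12) or 4 (-0.13). Snrnp40 and Prpf6 had log2 fold changes of 0.05 and 0.03.

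The U4/U6 and tri-snRNP genes split in direction. Snrnp27, the 27K protein of the tri-snRNP (chromosome 6, 86675169 to 86684491), had 34.8, 31.5, 32.7 and 35.9 CPM in the Taf8-deleted libraries, against 49.9, 49.8, 53.0 and 50.8 CPM in the wild-type libraries. It was 1.51-fold lower with a wide gap (log2 fold change -0.59, SE 0.05, adjusted p = 3.67e-06). Prpf4, a U4/U6 protein (chromosome 4, 62408762 to 62426990), had 74.3, 74.3, 77.2 and 75.4 CPM in the Taf8-deleted libraries, against 58.3, 56.7, 53.6 and 54.5 CPM in the wild-type libraries. It was 1.351-fold higher, again with no overlap (log2 fold change 0.43, SE 0.04, adjusted p = 6.24e-06).

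Prpf3, which binds Prpf4 in the same particle, was higher by a smaller amount, at 56.6 ± 3.07 CPM in deleted and 50.7 ± 1.12 CPM in wild-type cortex (log2 fold change 0.16, SE 0.05, adjusted p = 0.0119). The Prpf3 call was lost without deleted replicate 2 (0.10) or wild-type replicate 2 (0.14). Prpf31, the U4 protein altered in a form of human retinal degeneration, had 88.3 ± 4.43 CPM in deleted and 88.0 ± 8.74 CPM in wild-type cortex (log2 fold change 0.01, SE 0.07, adjusted p = 0.947). Per length, Snrnp27 had 40.3 ± 2.37 RPKM in deleted and 60.9 ± 1.77 RPKM in wild-type cortex, and Prpf4 had 14.4 ± 0.260 RPKM in deleted and 10.7 ± 0.408 RPKM in wild-type cortex. Snrnp27 was therefore above Prpf4, Prpf3 and Prpf31 in both genotypes.

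**Figure D4:**
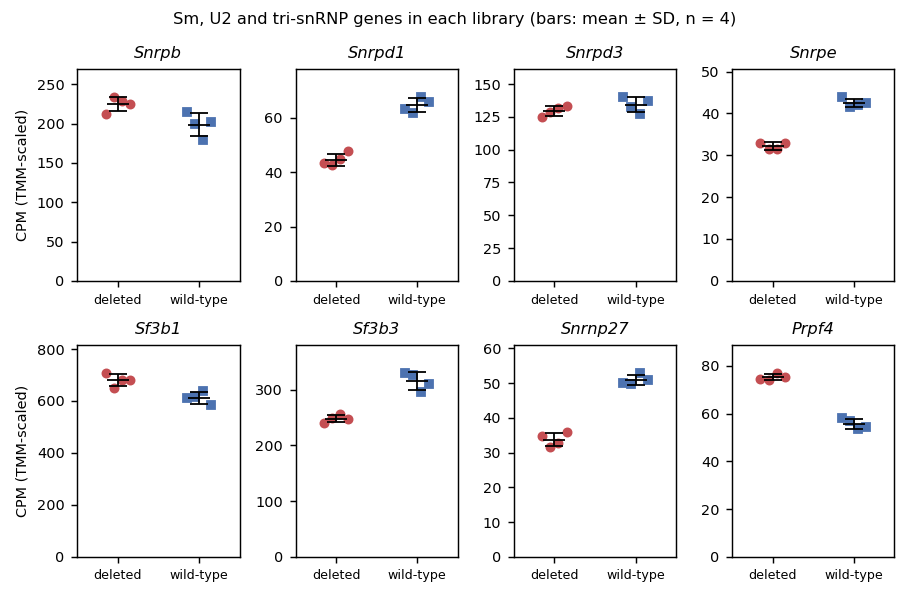
CPM of Snrpb, Snrpd1, Snrpd3, Snrpe, Sf3b1, Sf3b3, Snrnp27 and Prpf4 in each of the 4 Taf8-deleted (circles) and 4 wild-type libraries (squares), with the mean ± SD as bars and a y axis of its own from 0 for each gene. Snrpd1, Snrpe, Sf3b3 and Snrnp27 are lower and Sf3b1 and Prpf4 higher with no overlap, while Snrpb and Snrpd3 overlap.

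Of the Prp19 core and the disassembly helicase, Dhx15 and Cdc5l were lower and Prpf19 did not pass. Dhx15, known as Prp43 in yeast, releases the spent spliceosome, and had 267, 254, 271 and 269 CPM in the Taf8-deleted libraries, against 330, 330, 345 and 326 CPM in the wild-type libraries (log2 fold change -0.33, SE 0.04, adjusted p = 3.32e-05). Cdc5l had 43.2, 43.1, 45.7 and 45.2 CPM in the Taf8-deleted libraries, against 50.5, 51.7, 51.9 and 50.1 CPM in the wild-type libraries (log2 fold change -0.21, SE 0.04, adjusted p = 0.000955). Neither gene's groups overlapped. Prpf19, the ubiquitin ligase of the complex, had 342 ± 10.1 CPM in deleted and 328 ± 12.9 CPM in wild-type cortex (log2 fold change 0.06, adjusted p = 0.232). Cdc5l shares 28.0% of its stretches of 81 bases with 10 other annotated genes. Of the other called members, Snrpa shares 6.5%, Snrpa1 5.9% and Snrpd1 3.9%, and 327 of the 2964 exon bases of Snrpa overlap the opposite-strand gene BC024978.

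Since TFIID acts at core promoters, the promoters of the 2 most strongly lower and the 2 most strongly higher members held in the RefSeq table of promoters are given here. Each is the 250 bases before the annotated start site, 5′ to 3′ on the gene's strand (GRCm38.p6, the mm10 sequence), and capitals mark the letters of any motif searched. Lsm6 is minus strand, chr8:78821153-78821402. Snrnp27 is minus strand, chr6:86684492-86684741. Lsm5 is minus strand, chr6:56704700-56704949. Prpf4 is plus strand, chr4:62408533-62408782, and the deposited start of this gene lies inside the stretch.
Lsm6: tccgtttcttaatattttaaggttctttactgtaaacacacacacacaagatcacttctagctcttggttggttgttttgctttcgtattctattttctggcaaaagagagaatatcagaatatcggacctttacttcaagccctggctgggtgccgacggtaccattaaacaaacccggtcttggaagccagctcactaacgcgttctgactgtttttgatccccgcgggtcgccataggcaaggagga
Snrnp27: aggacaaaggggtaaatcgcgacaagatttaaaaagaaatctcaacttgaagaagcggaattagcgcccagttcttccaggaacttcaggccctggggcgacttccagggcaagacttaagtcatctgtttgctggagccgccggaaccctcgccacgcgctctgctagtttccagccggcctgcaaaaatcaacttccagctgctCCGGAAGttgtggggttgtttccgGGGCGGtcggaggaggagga
Lsm5: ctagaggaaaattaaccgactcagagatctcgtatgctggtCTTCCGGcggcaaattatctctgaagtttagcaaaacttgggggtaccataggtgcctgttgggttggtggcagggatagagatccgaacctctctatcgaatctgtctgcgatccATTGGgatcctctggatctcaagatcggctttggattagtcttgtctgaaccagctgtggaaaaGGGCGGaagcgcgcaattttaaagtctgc
Prpf4: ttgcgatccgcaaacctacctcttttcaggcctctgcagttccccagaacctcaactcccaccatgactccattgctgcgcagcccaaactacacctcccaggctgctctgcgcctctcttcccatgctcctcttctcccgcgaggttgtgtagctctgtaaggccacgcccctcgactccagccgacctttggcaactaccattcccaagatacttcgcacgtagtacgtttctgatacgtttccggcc

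In the lower pair, Snrnp27 holds the string CCGGAAG of ETS-family sites and the GC box GGGCGG, and Lsm6 holds none of the motifs. In the higher pair, Lsm5 holds the GC box, with CCGGAAG and CCAAT both read on the other strand, and Prpf4 holds none. The search covered both strands and also took in the TATA box as TATAAA, the YY1 motif as AAGATGGC, the cyclic AMP response element as TGACGTCA, the NRF1 palindrome and a palindrome centred on CGCG, and the marked letters of different motifs do not overlap in the printed stretches. The RefSeq table held 45 promoters for 37 of the 45 members, and 15090 promoters for 11840 of the genes tested. CCGGAAG was in 15 of the members' promoters (33.3%) and in 1809 of those of all genes tested (11.99%). Within the members it was in 35.0% of 20 promoters of lower genes, 25.0% of 8 promoters of higher genes and 35.3% of 17 promoters of genes that did not pass. These promoters belonged to only 17, 6 and 14 genes, since some genes had more than 1 promoter. Some promoters of the same gene overlap almost wholly. Those of Sf3b2 start at 5295408 and 5295406 and hold the same CCGGAAG, and those of U2af1 start at 31658715 and 31658705. A site can therefore count more than once in the shares of this and the other motifs. Over all genes tested, it was in 8.72% of promoters of lower genes and 15.3% of promoters of higher genes.

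The TATA box was in 4.44% of the members' promoters and 6.72% of those of all genes tested. CCAAT was in 42.2% of the members' promoters and 35.1% of those of all genes tested, and the GC box in 55.6% of the members' and 56.3% of those of all genes tested. The cyclic AMP response element was in 4 members' promoters (8.89%, against 2.52% of those of all genes tested), and the YY1 motif and both palindromes were in 1 each (2.22%, against 1.80%, 1.49% and 0.749%). A match describes these letters and is not evidence of binding.

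Neighbouring splicing genes outside the 45 members were as often higher as lower. Over 91 genes of 5 lists, 28 were higher (30.8%), 27 were lower (29.7%) and 36 fell short of the threshold; their median log2 fold change was 0.01. Of 24 further snRNP and associated proteins, 6 were higher and 7 lower (median -0.08). Sugp1, which works with SF3b1 in branch point choice, had 70.7 ± 2.92 CPM in deleted and 48.3 ± 3.30 CPM in wild-type cortex (log2 fold change 0.55), and the U1-associated Luc7l was higher at 0.29. Htatsf1 and Puf60, both U2-linked, fell by 0.32 on the log2 scale each. Snrpn, the close relative of Snrpb found in brain, was picked out after its values were seen. It had 4.59, 4.80, 5.31 and 5.62 CPM in the Taf8-deleted libraries, against 8.60, 9.05, 7.59 and 12.3 CPM in the wild-type libraries (log2 fold change -0.88, SE 0.15, adjusted p = 0.000439). It was lower with no overlap. Its counts ran from 142 to 298 in the deleted and from 259 to 485 in the wild-type libraries. Shared stretches and overlapping genes were not examined for Snrpn, so its level is uncertain. The call of Snrpb as higher depended on single libraries, as given above.

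The lists of later factors were also mixed. Of 29 Prp19-related and step factors, 6 were higher and 10 lower (median -0.06). Cwc22, which loads the exon junction complex, had 17.5 ± 0.439 CPM in deleted and 28.6 ± 1.89 CPM in wild-type cortex (log2 fold change -0.71), and the cyclophilin gene Ppie fell by 0.55 on the log2 scale, while Cwc25 and Bud31 were higher at 0.36 and 0.33. Of 9 exon junction complex genes, 3 were higher and 3 lower (median 0.05): Casc3 and Pnn were higher at 0.19 each, and Acin1 and Magohb were lower at -0.53 and -0.59. Of 10 genes of the minor spliceosome, which removes a rare class of introns, 2 were higher and 4 lower (median -0.07), with Snrnp25 and Snrnp48 higher at 0.29 and 0.16 and Snrnp35 and Pdcd7 lower at -0.38 and -0.28.

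The snRNP assembly list, whose products help to build, modify or recycle snRNPs, was the list with more higher genes. Of its 19 genes, 11 were higher (57.9%) and 3 lower (15.8%), with a median log2 fold change of 0.16. Over all genes tested, 29.5% were higher and 29.6% lower. Gemin2, which holds the partly built Sm ring, had 17.5 ± 0.988 CPM in deleted and 12.02 ± 0.920 CPM in wild-type cortex (log2 fold change 0.55, SE 0.07, adjusted p = 8.28e-05). Wdr77, part of the methylosome that modifies Sm proteins, had 128 ± 3.22 CPM in deleted and 98.9 ± 3.604 CPM in wild-type cortex (log2 fold change 0.38). The lower genes included Sart3, a U6 recycling factor, at -0.33 and Lsm11, of the U7 particle, at -0.27. The difference in counts between this list and the Sm genes was not tested.

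The libraries also differed in markers of cell types. The cortical genes Emx1, Emx2, Pax6, Eomes, Tbr1, Bcl11b and Neurod6 were all well detected, the least of them, Emx1, at 65.9 CPM on average. Neuron markers were lower in 9 of 10 genes, with summed levels of 5030 to 5538 CPM in deleted and 6189 to 7444 CPM in wild-type libraries. Of the radial glia markers 5 of 9 were higher and 2 lower, with sums of 3152 to 3502 CPM in deleted and 2313 to 2606 CPM in wild-type libraries. Cycling cell markers were lower in 3 of 10 and higher in none, with sums of 1663 to 1679 CPM in deleted and 1649 to 1947 CPM in wild-type libraries.

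Markers of non-neural cells were more often higher. Meningeal fibroblast markers were higher in 4 of 9 tested (23.4 to 142 CPM summed in deleted, 27.8 to 48.1 CPM in wild-type libraries), endothelial and pericyte markers in 10 of 10 (232 to 294 CPM in deleted, 193 to 205 CPM in wild-type libraries). Of the microglia markers 4 of 10 were higher and 1 lower (72.1 to 92.1 CPM in deleted, 66.9 to 78.4 CPM in wild-type libraries). Red cell markers were higher in 5 of 7 (348 to 469 CPM in deleted, 258 to 336 CPM in wild-type libraries). No marker listed was at 0 in all libraries. With the level of the meningeal markers as a covariate, 20 of the 27 calls of members remained in the same direction. Of all genes tested, 50.8% were called with this covariate and 59.2% without it. The part of the other cell types in the members' changes was not tested. Wild-type replicate 3 had the highest neuron sum (7444 CPM) and the lowest radial glia (2313 CPM) and cycling sums (1649 CPM) of its group, and also the lowest sum of the members (6376 CPM).

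Spearman's rho between length and log2 fold change was -0.0032 across the 45 members and -0.12 across all 15649 genes tested, given as a description since genes in the same libraries are not independent. With a length trend removed from each library, the median of the members was -0.13, with 23 lower and 9 higher. Over all genes tested the median was then 0.02, with 4584 lower and 4821 higher (60.1% called).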

How the data were processed

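Per the submitters' processing notes, reads were counted per Entrez gene with Subread 1.5.0 and featureCounts on mm10, and the deposited values are raw counts with no normalization. No annotation, strand setting or rule for reads with several matches is stated. The series table was checked against the single-sample files (0 values differed). Symbols came from the RefSeq table of GRCm38.p6 for 25275 of 27179 genes. Testing used R 4.3.3 and edgeR 4.0.16 (filterByExpr, TMM, quasi-likelihood F-test with genotype alone in the model), adjusted over 15649 genes; SE is the log2 fold change over the square root of F. Shared stretches of 81 bases and overlaps came from GENCODE M21. Steps were tested on simulated data. The floor of 3 counts was 0.0458 to 0.114 CPM, for counting error only. Library pairs within a group differed by more than sampling noise (chi-square 3.56 to 27.0 per degree of freedom).

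The members and lists were chosen with earlier results of these data known. All 45 members are given; values in every library are given for Taf8, the 12 called members with the largest change and the 2 with the smallest adjusted p in each of 8 role groups (19 members in all); Snrpb, Snrpd3 and Sf3b1, plotted beside them, and Snrpn were added after their values were seen. The other lists name up to 2 higher and 2 lower genes by adjusted p. Alternatives were other scalings and filters, DESeq2 1.42.0, limma 3.58.1, a replicate block, a length trend, a meningeal covariate, each library left out, a 1.2-fold null hypothesis, a threshold of 0.01 and the single-sample counts. The single-sample counts equal those of the series table, so that alternative repeats the same fit and could not differ.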

Additional observations from a re-analysis of the deposited data

Results flagged for a closer look

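In 132 groups of 4 libraries (members, Taf8 and the named genes of the other lists), 2 held a library set apart from the rest of its group, where chance flags about 1 in 20. Snrpd2 had 28.3 CPM in deleted replicate 1, below the 33.6 to 34.2 CPM of the other Taf8-deleted libraries. Pdcd7, of the minor spliceosome, had 29.97 CPM in wild-type replicate 3, below the 32.6 to 33.0 CPM of the other wild-type libraries.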

How the results depend on the processing

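Over 23 alternatives, 8 of the 27 called members (Snrpd1, Snrpe, Sf3b3, Prpf4, Snrnp27, Lsm4, Lsm5 and Lsm6) kept their direction and call in all, 10 lost it only against a 1.2-fold change, 9 lost it more often, and 0 changed sign. Against a 1.2-fold change the counts were 2 members higher and 6 lower, 5 other splicing genes higher and 7 lower, and 2307 of all genes higher and 2328 lower. Members higher numbered 3 with the meningeal covariate, 3 at the stricter threshold of 0.01, and 3 to 7 with 1 library left out; members lower numbered 17 to 23 with 1 library left out. The replicate numbers do not pair the libraries (correlations of deviations from -0.46 to 0.01, and no deleted library closest to its own number). With the replicate block members higher numbered 4 and members lower 16, and 52.9% of all genes tested were called.

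Members that did not pass changed sign as follows. Lsm8 was 0.016 when scaled by upper quartile, 0.028 by library size alone and 0.019 with the meningeal covariate. Prpf31 was -0.0054 with DESeq2, -0.013 with quality weights and -0.037 with the covariate, and from -0.055 to 0.054 with 1 library left out. With 1 library left out, Prpf6 ran from -0.013 to 0.051, Snrpd2 from -0.091 to 0.00020 and Sf3b6 from -0.018 to 0.032; Sf3b6 was also -0.023 with the length trend removed and -0.024 with the block beside it. The cause was not tested. With low counts, Lsm5 and Lsm7 are the members whose precision depth limits most.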
